A study of Mus musculus with 6 samples.

Results

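Interferon-stimulated genes are the genes that cells switch on when an interferon binds its receptor. The 36 described here were taken by symbol from a list fixed by name, and all 36 were found among the 23417 genes of the table. This list, and the pathway and marker lists used below, were chosen with earlier results of these data known. They comprise 10 type I induced genes of the IFIT, OAS and MX families, 17 other genes induced mainly by type I interferon, and 9 GTPases best known as targets of interferon gamma (Gbp2, Gbp3, Gbp5, Gbp6, Gbp7, Igtp, Irgm1, Irgm2 and Iigp1).

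RNA came from Kit-positive bone marrow cells of wild-type C57BL/6 mice, enriched with CD117 beads and grown in medium with IL-3, IL-6, mSCF and FLT3. After 12 hours the cells received retrovirus, with or without a mutated CSF3R, which encodes the receptor of the neutrophil growth factor G-CSF, and were sorted and kept overnight in the same medium. There were 6 stranded mRNA libraries, 1 for each construct. The series set out to compare leukaemogenic mutants, which carry the membrane-proximal change T618I, with truncations of the receptor tail, which are not leukaemogenic. The T618I-containing libraries were T618I, T618I/Q741 and T618I/W791, where the double mutants also carry a truncation, the truncation-only libraries were Q741 and W791, and the remaining library was the control vector. The mutants were expressed from a retrovirus in wild-type cells, no construct carried an unmutated receptor, and separate animals or cultures are not named in the labels. SDs and p-values below therefore reflect how constructs of 1 class vary among themselves, and comparisons with vector mix the introduction of a receptor with its mutation.

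Type I interferons signal through the receptor made of Ifnar1 and Ifnar2, whose kinases Jak1 and Tyk2 activate a complex with the DNA-binding subunit Irf9. This complex binds the interferon-stimulated response element of promoters such as those of the IFIT, MX and OAS genes. Interferon gamma signals through Ifngr1 and Ifngr2, acts on promoters with the gamma-activated sequence and raises, among others, the guanylate-binding proteins and the immunity-related GTPases. Haematopoietic progenitors are known to hold a basal level of many of these genes without infection.

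Values are FPKM, fragments relative to transcript length and library depth, a level per length, and differences are on the log2(FPKM + 1) scale, which understates changes of low values. Approximate depth was 19.3 to 24.4 M fragments in the 5 receptor libraries and 42.3 M in the vector library. Kit itself was at 32.6, 15.2 and 12.6 FPKM in T618I, T618I/Q741 and T618I/W791 cells, at 23.3 and 30.1 FPKM in Q741 and W791 cells, and at 34.5 FPKM in vector cells. Summed over 11 neutrophil marker genes the FPKM was 19850 to 36000 in the T618I-containing libraries, 3406 and 3764 in the truncation-only libraries and 2600 in vector. S100a8 and S100a9 made up most of this sum, with 11020 and 7240 FPKM in T618I cells. All 11 genes were higher on average in T618I-containing than in truncation-only libraries, as were 34.7% of all genes tested below. In T618I cells, however, Camp (4.25 FPKM) and Ltf (23.3 FPKM) were below vector (9.81 and 24.2 FPKM). T618I/W791 had the highest sum over 11 erythroid markers, 1097 FPKM, against 11.7 to 224.0 FPKM elsewhere. In bulk RNA, fewer cells of a type and less RNA per cell cannot be told apart. The part of these cell type differences in the values below was not tested.

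The interferon-stimulated genes were highest in vector cells, intermediate in cells with a truncation alone, and lowest in T618I/W791 cells. Summed over the 36 genes, the FPKM was 252.8, 381.8 and 199.1 in T618I, T618I/Q741 and T618I/W791 cells, 326.1 and 342.4 in Q741 and W791 cells, and 564.7 in vector cells. All receptor libraries were below vector in this sum, and the T618I-containing and truncation-only libraries overlapped, because T618I/Q741 lay above both truncations. The median gene stood at 44.9%, 65.6% and 33.0% of its vector level in T618I, T618I/Q741 and T618I/W791 cells, and at 64.4% and 66.0% in Q741 and W791 cells.

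Vector was the highest of the 6 libraries for 31 of the 36 genes. The exceptions were Oas2, Oas3 and Ddx58, highest in T618I/Q741, and Gbp5 and Gbp7, highest in Q741. T618I/W791 was the lowest library for 28 genes, T618I for 6 (Oasl1, Ifi35, Ifih1, Ddx58, Cmpk2 and Irgm1), T618I/Q741 for Gbp3 and Q741 for Igtp. Of the 34 genes that reached 1 FPKM in at least 2 libraries, 29 were highest in vector, as were 21.2% of all 11188 genes that did so, and 26 were lowest in T618I/W791, as were 28.7% of all genes. T618I was lowest for 6 of the 34 (5.85% of all genes), and T618I/Q741 (44.9%) and Q741 (8.61%) for 1 each. None of the 34 was highest in T618I, T618I/W791 or W791, which held the highest value of 7.34%, 33.7% and 7.57% of all genes, and none was lowest in W791 or vector (2.7% and 9.06%). T618I/Q741 was highest for 3 (18.8%) and Q741 for 2 (11.5%). With libraries scaled to a common median ratio the counts were 25 and 28 of 34, against 15.2% and 31.4% of all genes. Gbp6 and Iigp1 did not reach this level and were not tested, and Mx2 and Ifi44 reached it only through libraries without T618I, so that a lower value with T618I was built into their inclusion.

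**Figure D1:**
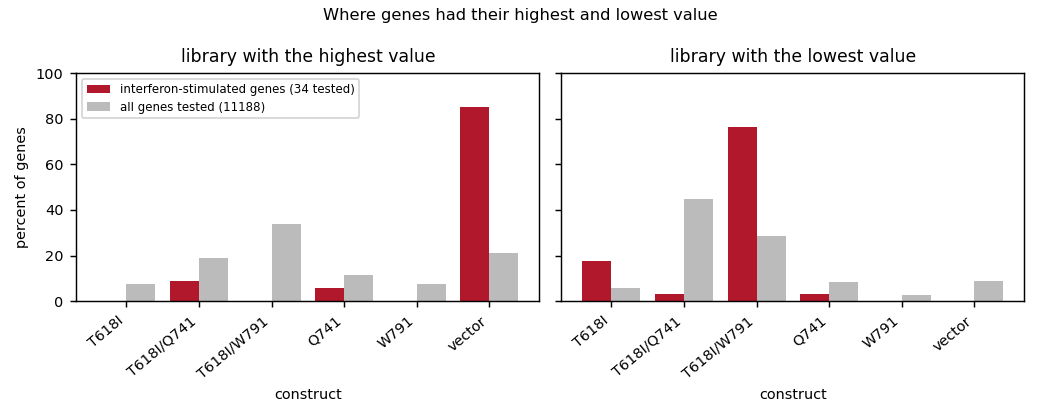
Percent of the 34 tested interferon-stimulated genes (red) and of all 11188 tested genes (grey) whose highest value (left) or lowest value (right) fell in each of the 6 libraries. Vector held the highest value of 29 of the 34 genes and T618I/W791 the lowest of 26.

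**Figure D2:**
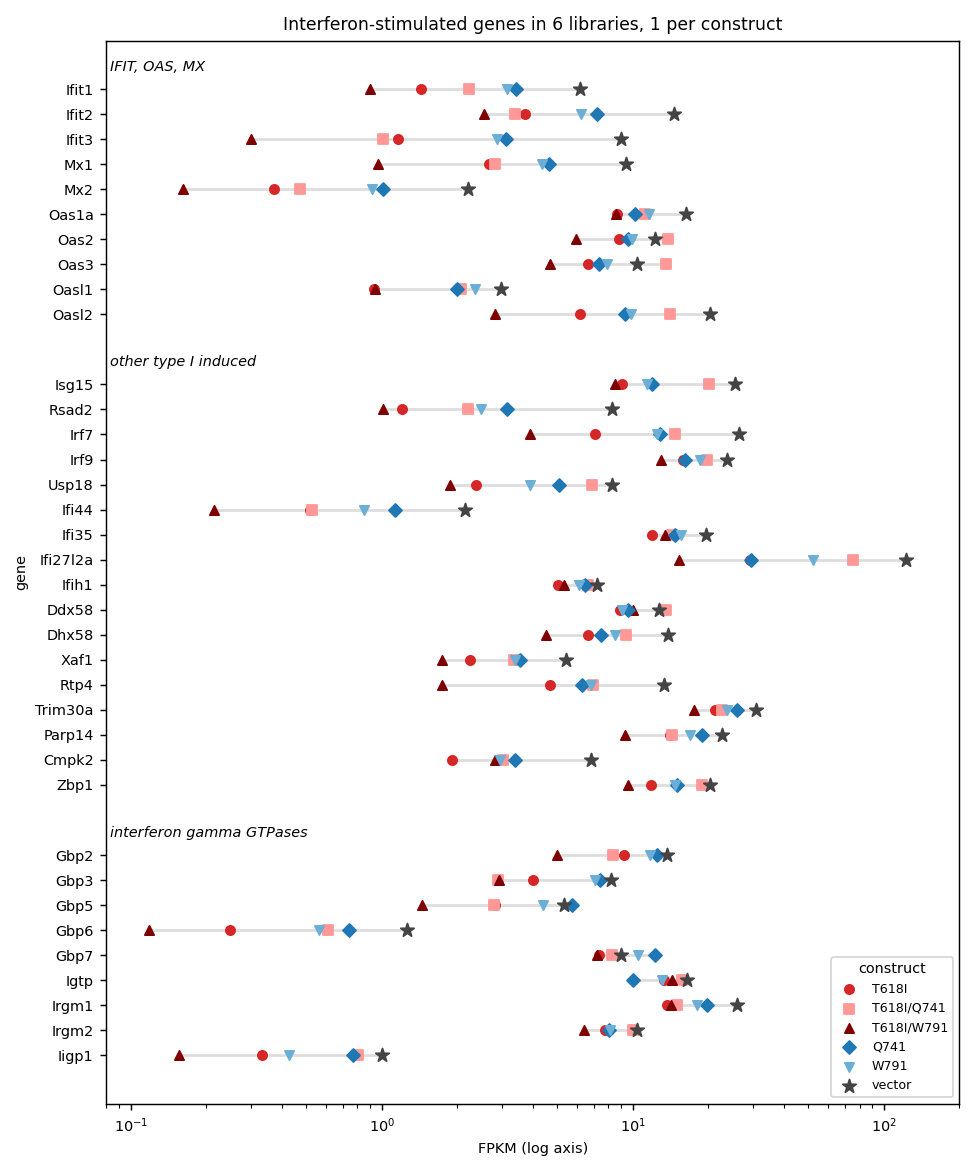
FPKM of each of the 36 genes on a log axis, 1 symbol for each of the 6 libraries, in the 3 groups of genes. The vector stars lie at the right end of 31 genes and the T618I/W791 triangles at the left end of 28. The T618I/Q741 squares lie among or right of the truncation-only symbols for the OAS genes. They lie left of them for the IFIT and Gbp genes, except Gbp6, where the square lies between them.

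Promoter windows from 250 bases before to 50 bases after the start, from RefSeq on GRCm38.p6 (the build also called mm10), were found for 25 of the 36 genes. The response element core (GAAA, any 2 bases, GAAA), searched on both strands, was present in 16 of the 25 (64.0%), against 1079 of 27025 genes of the RefSeq table (3.99%). By group it was in 4 of 7 windows of the IFIT, OAS and MX genes, 5 of 11 of the other type I genes and 7 of 7 of the GTPases. The gamma-activated sequence TTCNNNGAA, which reads the same on both strands, was in 7 of 25 windows (28.0%) against 9.55% of all, 4 of the 7 being GTPases. These are matches of letters in a window, not measured sites. The 5 windows shown are each 120 bases, 5′ to 3′ on the strand of the gene with matches in capitals, and belong to genes that differ in the results below. They are Ifit3 (chr19:34583349-34583468, plus strand), Isg15 (chr4:156200819-156200938, minus strand), Gbp3 (chr3:142559924-142560043, plus strand), Igtp (chr11:58199436-58199555, plus strand) and Irgm2 (chr11:58214857-58214976, plus strand).
Ifit3: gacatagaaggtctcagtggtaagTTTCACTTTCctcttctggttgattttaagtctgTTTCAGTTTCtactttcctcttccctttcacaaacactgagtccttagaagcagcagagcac
Isg15: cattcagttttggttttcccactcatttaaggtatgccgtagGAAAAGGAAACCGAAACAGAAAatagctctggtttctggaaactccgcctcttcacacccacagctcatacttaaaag
Gbp3: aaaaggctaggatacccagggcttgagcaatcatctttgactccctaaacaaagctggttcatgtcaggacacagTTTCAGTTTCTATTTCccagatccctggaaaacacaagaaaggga
Igtp: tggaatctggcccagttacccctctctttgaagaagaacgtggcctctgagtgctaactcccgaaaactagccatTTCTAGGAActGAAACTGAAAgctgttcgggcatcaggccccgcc
Irgm2: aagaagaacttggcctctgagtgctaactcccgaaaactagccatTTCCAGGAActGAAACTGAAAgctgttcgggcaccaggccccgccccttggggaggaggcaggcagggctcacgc
Ifit3 had 2 separate response element cores, Isg15 had 3 overlapping ones and Gbp3 had 2 overlapping ones. Igtp and Irgm2 each had a gamma-activated sequence directly before a response element core, in a stretch that both promoters largely share (longest identical run, 38 bases).

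The IFIT and MX genes were low in all 3 T618I-containing libraries. Ifit3, which binds foreign RNA with its partner Ifit1, was at 1.16, 1.01 and 0.300 FPKM in T618I, T618I/Q741 and T618I/W791 cells, at 3.13 and 2.88 FPKM in Q741 and W791 cells, and at 8.98 FPKM in vector cells. The groups did not overlap, and the lowest value, in T618I/W791, stood for only about 11 fragments against about 663 in vector. Its near-identical copy Ifit3b may take a share of the same reads, so its absolute level is uncertain.

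Ifit1, which holds back translation of viral RNA, had 1.44, 2.23 and 0.901 FPKM in T618I, T618I/Q741 and T618I/W791 cells, 3.43 and 3.14 FPKM in Q741 and W791 cells, and 6.15 FPKM in vector cells. Ifit2, the most abundant of the 3 IFIT genes, had 3.71, 3.38 and 2.55 FPKM in T618I, T618I/Q741 and T618I/W791 cells, 7.22 and 6.23 FPKM in Q741 and W791 cells, and 14.5 FPKM in vector cells. For both genes every T618I-containing library lay below both truncation-only libraries, which lay below vector. Mx1, a dynamin-like GTPase that acts against influenza viruses in mice with an intact allele, had 2.67, 2.81 and 0.966 FPKM in T618I, T618I/Q741 and T618I/W791 cells, 4.62 and 4.37 FPKM in Q741 and W791 cells, and 9.41 FPKM in vector cells. Its relative Mx2 had 0.370, 0.473 and 0.161 FPKM in T618I, T618I/Q741 and T618I/W791 cells, 1.01 and 0.917 FPKM in Q741 and W791 cells, and 2.21 FPKM in vector cells. Both MX genes showed the same order of groups without overlap, Mx2 on about 8 fragments in T618I/W791.

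The OAS genes, whose enzymes make the oligoadenylates that activate RNase L, showed another order, with T618I/Q741 above both truncations for Oas2, Oas3 and Oasl2. Oas3 had 6.65, 13.6 and 4.69 FPKM in T618I, T618I/Q741 and T618I/W791 cells, 7.33 and 7.92 FPKM in Q741 and W791 cells, and 10.4 FPKM in vector cells. Oas2 had 8.77, 13.9 and 5.92 FPKM in T618I, T618I/Q741 and T618I/W791 cells, 9.53 and 9.95 FPKM in Q741 and W791 cells, and 12.3 FPKM in vector cells. T618I/Q741 was the highest of the 6 libraries and T618I/W791 the lowest for both genes, so that the T618I-containing libraries spanned the truncations and vector.

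Oasl2, a family member with ubiquitin-like domains, had 6.16, 14.1 and 2.83 FPKM in T618I, T618I/Q741 and T618I/W791 cells, 9.29 and 9.86 FPKM in Q741 and W791 cells, and 20.3 FPKM in vector cells. Its relative Oasl1, which holds back translation of Irf7 in mice, had 0.927, 2.06 and 0.942 FPKM in T618I, T618I/Q741 and T618I/W791 cells, 1.99 and 2.36 FPKM in Q741 and W791 cells, and 2.98 FPKM in vector cells. T618I/Q741 again lay apart from the other T618I-containing libraries for both genes, though below vector. Oas1a had 8.68, 11.2 and 8.58 FPKM in T618I, T618I/Q741 and T618I/W791 cells, 10.2 and 11.6 FPKM in Q741 and W791 cells, and 16.3 FPKM in vector cells, with T618I/Q741 between the 2 truncations. Oas1a has near-identical copies, such as Oas1g, whose reads could have been split between them.

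Among the other type I genes, those of the ubiquitin-like modifier pathway and the transcription factor Irf7 followed the OAS order. Isg15, the ubiquitin-like protein that is joined to other proteins after interferon, had 9.04, 20.03 and 8.51 FPKM in T618I, T618I/Q741 and T618I/W791 cells, 12.0 and 11.4 FPKM in Q741 and W791 cells, and 25.4 FPKM in vector cells. Usp18, the protease that removes Isg15 and also damps the type I receptor, had 2.38, 6.90 and 1.87 FPKM in T618I, T618I/Q741 and T618I/W791 cells, 5.07 and 3.88 FPKM in Q741 and W791 cells, and 8.25 FPKM in vector cells. Irf7, which amplifies type I interferon production, had 7.06, 14.7 and 3.91 FPKM in T618I, T618I/Q741 and T618I/W791 cells, 12.8 and 12.5 FPKM in Q741 and W791 cells, and 26.5 FPKM in vector cells. For all 3 genes T618I/Q741 lay between the truncations and vector, and T618I and T618I/W791 lay below all other libraries.

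Ifi27l2a, a small interferon-induced protein, had the highest vector level of the 36 genes, with 29.3, 75.3 and 15.2 FPKM in T618I, T618I/Q741 and T618I/W791 cells, 29.7 and 52.0 FPKM in Q741 and W791 cells, and 122.8 FPKM in vector cells. Rtp4, a chaperone of membrane receptors, had 4.67, 6.97 and 1.74 FPKM in T618I, T618I/Q741 and T618I/W791 cells, 6.26 and 6.83 FPKM in Q741 and W791 cells, and 13.4 FPKM in vector cells. T618I/W791 was lowest for both, and vector was highest. Irf9, the DNA-binding subunit of the type I complex, varied less, with 15.8, 19.8 and 12.97 FPKM in T618I, T618I/Q741 and T618I/W791 cells, 16.2 and 18.5 FPKM in Q741 and W791 cells, and 23.8 FPKM in vector cells.

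A second set of type I genes followed the IFIT order. Rsad2, the antiviral enzyme viperin, had 1.199, 2.21 and 1.01 FPKM in T618I, T618I/Q741 and T618I/W791 cells, 3.16 and 2.49 FPKM in Q741 and W791 cells, and 8.29 FPKM in vector cells. Parp14, an ADP-ribosyltransferase, had 14.0, 14.3 and 9.31 FPKM in T618I, T618I/Q741 and T618I/W791 cells, 18.8 and 16.9 FPKM in Q741 and W791 cells, and 22.7 FPKM in vector cells. The T618I-containing libraries did not overlap with the others for either gene, nor for Ifi44, Ifi35, Trim30a (a TRIM-family protein) and Xaf1 (an antagonist of the apoptosis inhibitor XIAP), although Xaf1 was close, at 3.35 FPKM in T618I/Q741 and 3.39 FPKM in W791. Cmpk2, a mitochondrial nucleotide kinase encoded beside Rsad2, had 1.91, 3.05 and 2.83 FPKM in T618I, T618I/Q741 and T618I/W791 cells, 3.39 and 2.97 FPKM in Q741 and W791 cells, and 6.82 FPKM in vector cells, so that T618I/Q741 lay between the truncations, the other T618I-containing libraries lay below them and vector stood above all.

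The cytosolic RNA sensors Ifih1 and Ddx58 had the smallest ratios of highest to lowest value among the 36 genes. Ifih1 (also called MDA5) had 5.02, 6.63 and 5.33 FPKM in T618I, T618I/Q741 and T618I/W791 cells, 6.47 and 6.10 FPKM in Q741 and W791 cells, and 7.18 FPKM in vector cells. Ddx58 (RIG-I) had 8.90, 13.5 and 9.98 FPKM in T618I, T618I/Q741 and T618I/W791 cells, 9.58 and 9.04 FPKM in Q741 and W791 cells, and 12.7 FPKM in vector cells. Ddx58 was the only type I gene with a higher mean on the log2(FPKM + 1) scale in T618I-containing than in truncation-only libraries, and the groups overlapped. The regulator of these sensors, Dhx58, and the sensor of Z-form nucleic acids, Zbp1, ranged more widely: Dhx58 was lowest in T618I/W791 (4.49 FPKM) and highest in vector (13.8 FPKM), and Zbp1 was at 9.54 FPKM in T618I/W791 and 20.2 FPKM in vector.

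The GTPases split into guanylate-binding proteins, lower with T618I in every pair of libraries, and immunity-related GTPases, of which only Irgm1 was. Irgm2 and Iigp1 were lower in T618I than in vector and in T618I/W791 than in W791, but higher in T618I/Q741 than in Q741. Igtp was lower in T618I than in vector, and higher with T618I in the other pairs. Gbp3, a guanylate-binding protein that acts on intracellular pathogens, had 3.99, 2.91 and 2.94 FPKM in T618I, T618I/Q741 and T618I/W791 cells, 7.42 and 7.09 FPKM in Q741 and W791 cells, and 8.16 FPKM in vector cells. Gbp5, which promotes inflammasome assembly, had 2.83, 2.79 and 1.44 FPKM in T618I, T618I/Q741 and T618I/W791 cells, 5.73 and 4.40 FPKM in Q741 and W791 cells, and 5.34 FPKM in vector cells. T618I-containing libraries lay apart below the rest for both genes, while the truncations lay close to vector.

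Gbp2, which coats pathogen vacuoles, had 9.25, 8.31 and 4.98 FPKM in T618I, T618I/Q741 and T618I/W791 cells, 12.5 and 11.7 FPKM in Q741 and W791 cells, and 13.6 FPKM in vector cells. Gbp7 had 7.31, 8.27 and 7.23 FPKM in T618I, T618I/Q741 and T618I/W791 cells, 12.3 and 10.5 FPKM in Q741 and W791 cells, and 8.96 FPKM in vector cells. Neither gene overlapped between T618I-containing and other libraries, and Gbp7 differed from the type I genes in being higher in both truncations than in vector. The related gene Gbp2b was listed at 0 to 0.0499 FPKM, and whether it shared reads with Gbp2 was not tested.

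Irgm1, a regulator of the immunity-related GTPases, had 13.7, 15.1 and 14.2 FPKM in T618I, T618I/Q741 and T618I/W791 cells, 19.7 and 18.0 FPKM in Q741 and W791 cells, and 25.9 FPKM in vector cells, without overlap. Igtp (Irgm3), another such regulator, had 13.3, 15.7 and 14.3 FPKM in T618I, T618I/Q741 and T618I/W791 cells, 9.99 and 13.04 FPKM in Q741 and W791 cells, and 16.4 FPKM in vector cells. It was the only one of the 36 genes at which all T618I-containing libraries lay above both truncations (9.22% of all tested genes did so). Irgm2 had 7.72, 10.0 and 6.36 FPKM in T618I, T618I/Q741 and T618I/W791 cells, 8.06 and 8.14 FPKM in Q741 and W791 cells, and 10.4 FPKM in vector cells, with the groups overlapping. Igtp (chr11:58199556-58207591) and Irgm2 (chr11:58199618-58222782) overlap on the plus strand in GENCODE M21, so reads could have been assigned to either and both values are uncertain. Gbp6 (0.118 to 1.26 FPKM) and Iigp1 (0.156 to 1.004 FPKM), an immunity-related GTPase that attacks pathogen vacuoles, were both lowest in T618I/W791 and highest in vector.

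The comparison of T618I-containing with truncation-only libraries is the one named by the design of the series. The interferon-stimulated genes leaned lower with T618I, led by Ifit3, Gbp3, Ifit2, Gbp5, Mx1 and Ifit1, but no gene of the 36 passed the test after adjustment. Of the 34 tested, 32 had a difference below 0, as did 65.3% of all tested genes. With median-ratio scaling 28 did, where the median of all genes was -0.0036. Before scaling the exceptions were Ddx58 and Igtp. The median difference was -0.39 over the 34 genes, -0.53 over the IFIT, OAS and MX genes, -0.27 over the other type I genes and -0.53 over the GTPases, against -0.07 over all genes.

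All T618I-containing libraries lay below both truncations for 16 of the 36 genes, as for 21.1% of all tested genes. They lay below vector as well for the same number, 16 genes, against 18.2% of all tested genes, and for 0 did they lie above all other libraries (8.04%). With median-ratio scaling 11 of the 16 kept this order (11.8% of all tested genes): Ifit1, Ifit2, Ifit3, Mx1, Mx2, Ifi44, Parp14, Gbp2, Gbp3, Gbp5 and Irgm1. Both counts hold Mx2 and Ifi44, which passed the filter only through libraries without T618I.

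By limma's moderated test with Benjamini-Hochberg adjustment over all 11188 genes, 0 of the 34 interferon-stimulated genes were lower or higher (0.0179% and 0.179% of all genes were). At an unadjusted p below 0.05, 12 were lower (4.86% of all genes) and 0 higher (4.16%). The 12 were Ifit1, Ifit2, Ifit3, Mx1, Mx2, Rsad2, Ifi44, Gbp2, Gbp3, Gbp5, Gbp7 and Irgm1. Of these, Mx2 and Ifi44 reached the test only through libraries without T618I, so a lower value with T618I was built into their inclusion. Ifit3 differed by -1.17 ± 0.26 on the log2 scale (SE, limma adjusted p = 0.299), Gbp3 by -0.96 ± 0.17 (limma adjusted p = 0.211), Ifit2 by -0.88 ± 0.18 (limma adjusted p = 0.255) and Gbp5 by -0.88 ± 0.25 (limma adjusted p = 0.416). At the other end, Isg15 differed by -0.01 ± 0.37, Oas3 by -0.00 ± 0.40 and Irgm2 by -0.03 ± 0.20, with a sign that turned positive under median-ratio scaling for all 3, and Igtp by 0.31 ± 0.17 (limma adjusted p = 0.705). Irf7 differed by -0.68 ± 0.48, and its error, like those of Oas2, Oas3, Oasl2 and Isg15, was larger than those of the IFIT genes.

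Leaving out 1 library moved these figures. The median of the 34 genes was -0.22 without T618I/W791 and -0.58 without T618I/Q741. It was -0.36 without T618I, -0.35 without Q741 (32 genes tested) and -0.44 without W791. No gene of the 36 passed after adjustment in any of these fits.

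**Figure D3:**
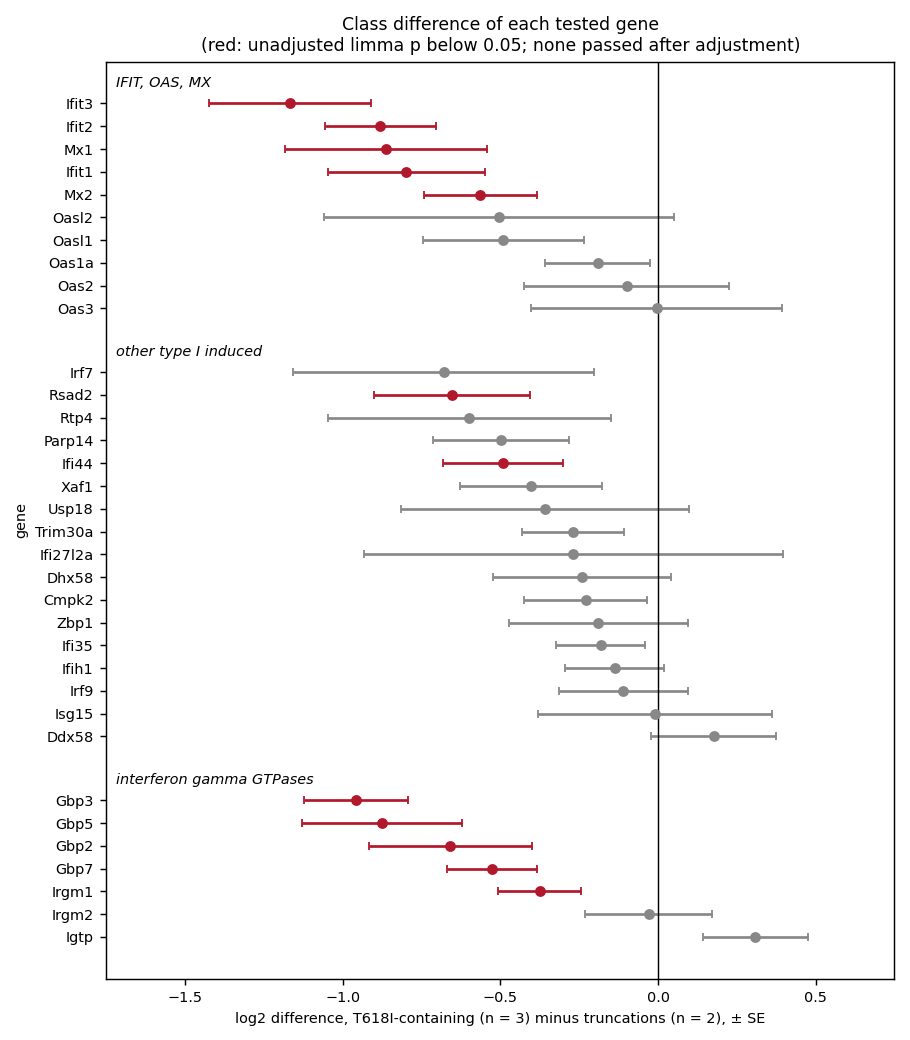
Log2 difference of T618I-containing (n = 3) minus truncation-only (n = 2) libraries for the 34 tested genes, with the SE of the limma fit as bars, and red for an unadjusted p below 0.05. Ifit3 lies lowest at -1.17, and Igtp at 0.31 and Ddx58 at 0.18 lie above 0.

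With vector counted beside the truncations (3 libraries with T618I against 3 without), Gbp3 fell by 1.01 on the log2 scale (SE 0.14, limma adjusted p = 0.0331). It was the only interferon-stimulated gene past the threshold in that fit, in which 0.197% of all genes were lower. Gbp3 also passed in a fit with pairs of libraries as blocks: T618I/Q741 with Q741, T618I/W791 with W791, and T618I with vector. The last pair does not share a tail, because vector carries no receptor, so it mixes a receptor with its mutation. The difference was the same (SE 0.14, limma adjusted p = 0.0497), and 0.322% of all genes were lower in that block fit. At an unadjusted p below 0.05, 16 of the 34 genes were lower in the first fit (9.8% of all genes) and 17 in the block fit (7.66%), and 0 were higher in either (6.08% and 5.99%). Both counts of lower genes hold Mx2 and Ifi44, tested only through libraries without T618I. After adjustment 0 were higher in either fit, where 0.67% and 0.742% of all genes were. In both fits 32 of the 34 lay below 0, as did 65.8% of all genes.

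Against vector, all 34 tested genes were lower on average in T618I-containing libraries, as were 64% of all genes. With median-ratio scaling 33 of the 34 were, where the median of all genes was 0.003. Before scaling the type I genes differed most. The median difference was -1.39 over the IFIT, OAS and MX genes, -0.96 over the other type I genes and -0.82 over the GTPases, against -0.08 over all genes. Ifit3 differed by -2.49 ± 0.33 (SE, limma adjusted p = 0.129), Rsad2 by -1.94 ± 0.31 (limma adjusted p = 0.182) and Ifit2 by -1.89 ± 0.22 (limma adjusted p = 0.0956). By limma 0 of the 34 genes passed after adjustment in either direction (0.0268% of all genes were lower and 0.134% higher), and 21 were lower at an unadjusted p below 0.05 (5.13% of all genes). The single vector library is assumed in this fit to vary like the others. Without T618I/W791, 2 genes passed: Ifit3 fell by 2.26 (SE 0.17, limma adjusted p = 0.0377) and Ifit2 fell by 1.77 (SE 0.17, limma adjusted p = 0.0471). Over all genes, 0 to 6 were lower after adjustment in the fits with 1 library left out. Mx2 and Ifi44 were among the 21 genes at an unadjusted p below 0.05 with all libraries. The median difference of the 34 genes was -1.05 without T618I/Q741, -0.75 without T618I/W791 and -0.94 without T618I. With 1 truncation library left, the median difference was -0.88 without Q741 (32 genes tested) and -0.93 without W791. With all libraries the median of the 34 genes was -0.93.

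The truncations alone also stood below vector for most type I genes. Of the 34 genes 33 were lower on average, all but Gbp7, as were 55% of all genes (45% were higher). With median-ratio scaling 32 of the 34 were lower, where the median of all genes was -0.0025. Before scaling, over all 36, both truncations were below vector for all but Gbp5 and Gbp7, as for 41.4% of all tested genes. The median difference was -0.72 over the IFIT, OAS and MX genes and -0.66 over the other type I genes, but -0.16 over the GTPases, against -0.02 over all genes. Ifit3 differed by -1.32 ± 0.34, Rsad2 by -1.29 ± 0.33 and Ifit2 by -1.01 ± 0.24 (SE). By limma 0 genes of the 34, and 0% of all genes, passed after adjustment in either direction. At an unadjusted p below 0.05, 7 were lower (Ifit2, Ifit3, Mx2, Rsad2, Ifi44, Cmpk2 and Irgm1), where only 46 of all 11188 genes were (0.411%), and 0 were higher (0.241% of all genes). The median difference of the 34 genes was -0.50 with all libraries, -0.45 without Q741 (32 genes tested) and -0.54 without W791.

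Single pairs of libraries showed a lower median of the interferon-stimulated genes with T618I on vector and on W791, and none on Q741. These differences have 1 library on each side, with no replicate check and no test, and are read by a 2-fold threshold. In T618I minus vector the median of the 34 genes was -0.92 (all genes -0.07), and 15 were at least 2-fold lower, against 1.27% of all genes. In T618I/W791 minus W791 the median was -0.70 (all genes -0.00), and 11 were at least 2-fold lower, against 4.26% of all genes. In T618I/Q741 minus Q741 the median was 0.00 where that of all genes was -0.16, a shift that median-ratio scaling moved to -0.03 for all genes and 0.13 for the 34. There Ifit3 and Gbp3 were at least 2-fold lower (1.89% of all genes were) and Ifi27l2a at least 2-fold higher (4.74%), and with scaling neither Ifit3 nor Gbp3 reached 2-fold.

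Of the 36 genes, 18 were lower with T618I in all 3 pairs: the IFIT and MX genes, Rsad2, Ifi44, Ifi35, Xaf1, Trim30a, Parp14, Cmpk2, Gbp2, Gbp3, Gbp5, Gbp6, Gbp7 and Irgm1. Of the 34 tested, 17 were, as were 24.4% of all tested genes, and with median-ratio scaling 14, as were 16.6%. Mx2 and Ifi44, tested only through libraries without T618I, were in both of these counts. The other 18, with every OAS gene, Isg15, Usp18, Irf7, Irf9, the 3 RNA sensors, Ifi27l2a, Rtp4, Zbp1, Igtp, Irgm2 and Iigp1, were at or above the Q741 level in T618I/Q741. The GTPases had like medians in the 3 pairs, -0.51 on vector, -0.52 on Q741 and -0.48 on W791. The IFIT, OAS and MX genes did not, with -1.37 on vector, -0.21 on Q741 and -0.91 on W791. Gbp3 had differences of -0.88, -1.11 and -1.04 in these pairs. In T618I/Q741 minus Q741 without scaling, 17 of the 34 tested genes were below 0, as were 65.5% of all genes. With median-ratio scaling 14 of the 34 were, where the median of all genes had moved from -0.16 to -0.03.

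The 2 double mutants differed from each other more than the 2 truncations did. T618I/Q741 was above T618I/W791 for 35 of the 36 genes, all but Gbp3, as for 41.9% of all tested genes, with a median of 0.63 where that of all genes was -0.12. With scaling these medians were 0.72 and 0.00. Oas2, Oas3, Oasl2, Isg15, Irf7, Usp18, Ifi27l2a and Rtp4 were at least 2-fold higher in T618I/Q741, against 5.88% of all genes, and 0 were at least 2-fold lower (7.58%). Between Q741 and W791 the median was 0.06, and 0 of the 34 genes reached 2-fold in either direction (0.0447% of all genes were higher and 0.67% lower in Q741). The truncations against vector had 5 genes at least 2-fold lower in Q741 (0.822% of all genes) and 6 in W791 (0.304%), among them Ifit3, Rsad2, Isg15 and Ifi27l2a in both.

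**Figure D4:**
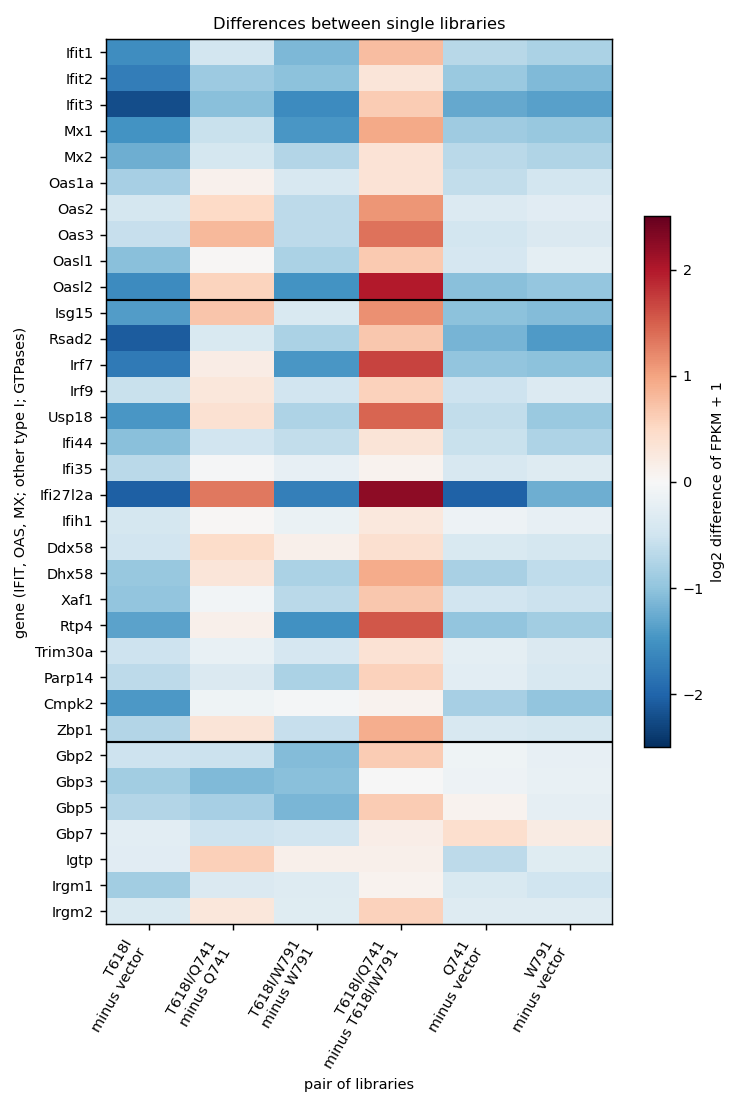
Log2 difference of FPKM + 1 between single libraries for the 34 tested genes (blue lower, red higher in the library named first), with lines between the 3 groups of genes. The column of T618I/Q741 minus Q741 is near white or red for the OAS genes and Isg15 and blue for the IFIT and Gbp genes, and the column of T618I/Q741 minus T618I/W791 is above 0 for all but Gbp3.

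Upstream of these genes, the interferons themselves were at or near 0. Of 19 ligand genes in the table none was tested: the Ifna genes, Ifng, Ifnl2 and Ifnl3 were listed at 0 in all 6 libraries, and Ifnb1 was listed at 0 in all but Q741, at 0.0624 FPKM. The type I receptor chain Ifnar1 had 25.0, 21.6 and 20.04 FPKM in T618I, T618I/Q741 and T618I/W791 cells, 32.5 and 29.7 FPKM in Q741 and W791 cells, and 27.3 FPKM in vector cells, a class difference of -0.47 without overlap (limma adjusted p = 0.463). Irf8, a transcription factor of monocytes and dendritic cells, had the most negative class difference of the signalling genes. It was at 32.5, 36.9 and 15.6 FPKM in T618I, T618I/Q741 and T618I/W791 cells, 58.1 and 57.1 FPKM in Q741 and W791 cells, and 83.3 FPKM in vector cells, a difference of -1.09 (limma adjusted p = 0.483).

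Over 85 further tested genes of the interferon pathway (receptors, signalling, sensors, inhibitors, antigen presentation, chemokines and other effectors), 65 were lower and 20 higher in T618I-containing than in truncation-only libraries, with a median of -0.20, where 65.3% of all genes were lower. By limma 0 of the 85 passed after adjustment. Tlr3, Ifi205 and Phf11a among them reached the test only through libraries without T618I. Ifi203, a DNA-binding protein of the p200 family, had 16.0, 10.0 and 8.38 FPKM in T618I, T618I/Q741 and T618I/W791 cells, 31.0 and 30.4 FPKM in Q741 and W791 cells, and 34.5 FPKM in vector cells. Its groups were far apart. Of the 85 only Ifi203 passed in the block fit, which pairs T618I with vector. There it fell by 1.45 with T618I (SE 0.18, limma adjusted p = 0.0469). Without the block its limma adjusted p was 0.0504. Cxcl10, a chemokine drawing T cells, had 2.31, 1.15 and 3.09 FPKM in T618I, T618I/Q741 and T618I/W791 cells, 6.01 and 4.92 FPKM in Q741 and W791 cells, and 8.52 FPKM in vector cells, a difference of -1.07 (limma adjusted p = 0.397). The inhibitor Socs3 had 122.5, 156.4 and 31.6 FPKM in T618I, T618I/Q741 and T618I/W791 cells, and 73.8 and 85.7 FPKM in Q741 and W791 cells. It was at 45.3 FPKM in vector cells. The T618I-containing libraries thus lay on both sides of all others, with a class difference of 0.09 ± 0.68 (SE, limma adjusted p = 0.998).

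Summed markers of plasmacytoid dendritic cells, known producers of type I interferon, were highest in vector and lowest in T618I/W791, like the interferon-stimulated genes. All 9 markers were in the table, and their summed FPKM was 76.4, 83.2 and 49.4 in T618I, T618I/Q741 and T618I/W791 cells, 101.4 and 117.6 in Q741 and W791 cells, and 237.8 in vector cells. Bst2, itself interferon-induced, made up a large share of this sum. Without it the other 8 markers summed to 31.3, 24.5 and 13.8 FPKM in T618I, T618I/Q741 and T618I/W791 cells, 49.6 and 58.3 FPKM in Q741 and W791 cells, and 130.3 FPKM in vector cells. Cox6a2 alone was at 62.1 FPKM in vector cells, a large share of this second sum. Vector was highest and T618I/W791 lowest with or without Bst2, and T618I/Q741 lay below both truncations, unlike in the summed interferon-stimulated genes. The defining marker Siglech was at 0.466 and 0.0973 FPKM in T618I and T618I/Q741 cells, listed at 0 in T618I/W791 cells, at 1.93 and 1.54 FPKM in Q741 and W791 cells, and at 8.81 FPKM in vector cells. Klk1 was listed at 0 in 5 libraries. Of the 7 markers tested, 7 were lower in T618I-containing than in truncation-only libraries (median -0.85, with 65.3% of all genes lower) and 7 lower in the truncations than in vector (median -1.33, with 55% of all genes lower). Siglech reached the test only through libraries without T618I, so a lower value with T618I was built into its inclusion.

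The 12 monocyte and macrophage markers in the table summed to 1570, 1845 and 963 FPKM in T618I, T618I/Q741 and T618I/W791 cells, 2167 and 1975 FPKM in Q741 and W791 cells, and 1935 FPKM in vector cells. T618I/W791 was lowest in this sum as in the interferon-stimulated genes, but both truncations were above vector. The 12 conventional dendritic cell markers, which include class II antigen presentation genes that interferon gamma also raises, summed to 1139, 1147 and 313.6 FPKM in T618I, T618I/Q741 and T618I/W791 cells, 1339 and 1575 FPKM in Q741 and W791 cells, and 1951 FPKM in vector cells. Here too vector was highest and T618I/W791 lowest. The class II genes Cd74, H2-Aa, H2-Ab1 and H2-Eb1 made up most of this sum, with 1006, 412.9, 287.2 and 167.2 FPKM in vector cells. Of the 9 markers tested, 8 were lower in T618I-containing than in truncation-only libraries (median -0.86, with 65.3% of all genes lower). The exception, Clec9a, was highest in T618I cells (1.59 FPKM) and lowest in Q741 cells (0.565 FPKM). Zbtb46 and Xcr1 were not tested. Zbtb46 was highest in T618I/W791 cells (1.03 FPKM) and Xcr1, near 0, in T618I/Q741 cells (0.161 FPKM). The part of dendritic cells and monocytes in the levels of the interferon-stimulated genes was not tested.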

How the data were processed

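RNA of 6 libraries, 1 per construct, was measured by stranded mRNA sequencing. The authors deposited 1 table with a value per gene and library. Its header names no unit, and the authors' deposited values were read as FPKM, the output of Cufflinks, with column totals of 440108 to 492560. The submitters' processing notes name TopHat, Cufflinks and mm10. Versions, annotation and use of strand: not given in the sources used here. Columns of the double mutants were matched to titles by their letters.

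Of 23444 rows, 27 with a date in place of a symbol were left out. The 11188 genes that reached 1 FPKM in 2 or more libraries were tested on log2(FPKM + 1) with limma 3.58.1 in R 4.3.3, by group means of T618I-containing (n = 3), truncation-only (n = 2) and vector (n = 1) libraries with a trended prior (3 residual degrees of freedom), and Benjamini-Hochberg adjustment at 0.05. The scripts were tested on simulated data. Depth was approximated from the smallest steps of the values of single-transcript genes, with GENCODE M21 lengths. Alternatives were the pseudocount (0.1), no filter, median-ratio scaling, no trend, 3 libraries against 3, the tail as a block and leaving out each library. The labels give no replicate numbers, so the block follows construct names, with T618I paired with vector, which has no receptor tail. The genes described, all 36 by rule, and the pathway and marker lists were chosen with earlier results of these data known.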

Additional observations from a re-analysis of the deposited data

Results flagged for a closer look

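For Oas3, Oasl2 and Ifi27l2a, T618I added to Q741 and T618I added to W791 went in opposite directions by more than 0.5 on the log2 scale each. Each effect rests on 1 library per side, and the difference was not tested. For Ifi27l2a the difference in T618I/Q741 minus Q741 was 1.31 and in T618I/W791 minus W791 was -1.71, which are 3.02 apart. For Oasl2 the values were 0.55 and -1.50, which are 2.06 apart. For Oas3 the values were 0.81 and -0.65, which are 1.45 apart.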

How the results depend on the processing

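Against truncations, median-ratio scaling turned the difference positive for Oas3 (0.067), Isg15 (0.065) and Irgm2 (0.041). Leaving out 1 library, the difference ranged from -0.39 to 0.17 for Oas2, -0.39 to 0.29 for Oas3, -0.38 to 0.20 for Isg15, -0.26 to 0.031 for Irf9, -0.86 to 0.25 for Ifi27l2a, -0.45 to 0.0095 for Zbp1 and -0.18 to 0.11 for Irgm2. With a pseudocount of 0.1 the median of the IFIT, OAS and MX genes was -0.92 against truncations and -1.85 against vector. Members past 2-fold at that pseudocount numbered 4 lower in T618I/Q741 minus Q741 (3.95% of all genes), 15 higher in T618I/Q741 minus T618I/W791 (8.42%), 9 lower in Q741 minus vector (1.72%) and 12 lower in W791 minus vector (0.626%). With a pseudocount of 1 and median-ratio scaling, 0 were lower in T618I/Q741 minus Q741. These pair settings, and the marker sum without Bst2, were chosen after seeing the data.

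Without the filter the GTPase median was -0.38 against truncations and -0.32 for truncations against vector. Over all genes that fit called 3 higher against truncations, 6 higher and 16 lower against vector, and 9 lower in truncations against vector. With 3 libraries against 3, 75 genes were higher and 22 lower, and with the tail as a replicate block 83 and 36, with 1 member, Gbp3, lower in each. Leaving out 1 library, 2 to 30 genes were higher and 0 to 5 lower against truncations, 9 to 28 higher and 0 to 6 lower against vector, members lower against vector numbered 0 to 2, and the GTPase median against vector was -0.85 to -0.58. The cause of these shifts was not tested. No paired analysis by replicate number was possible because the labels give none. Low members rest on few fragments, down to about 8.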

Other observations

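Some interferon-induced effectors outside the 36 ran the other way. Ifitm6, of a family of membrane proteins that block viral entry, had 306.1, 492.6 and 175.7 FPKM in T618I, T618I/Q741 and T618I/W791 cells, 142.8 and 162.5 FPKM in Q741 and W791 cells, and 123.1 FPKM in vector cells. All T618I-containing libraries were above all others, with a class difference of 0.96 ± 0.43 (SE, limma adjusted p = 0.601). Isg20, an RNA exonuclease, differed by 0.85 ± 0.29 (limma adjusted p = 0.482) and Ifitm1 by 0.47 ± 0.34 (limma adjusted p = 0.821). The groups overlapped for Ifitm1, at 2060 FPKM in T618I/W791 cells against 2134 and 2542 FPKM in Q741 and W791 cells. For Isg20, vector (6.67 FPKM) was above T618I (5.96 FPKM) and T618I/W791 (6.60 FPKM).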
